A study of Drosophila melanogaster with 15 samples.

Results

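Voltage-gated and leak ion channels set the electrical behaviour of a neuron. The 35 genes described here were taken as a fixed list of pore subunits and their auxiliary subunits, chosen by gene function, with earlier results of these data known. They were followed in nuclear RNA of the mushroom body, the centre for olfactory memory in the fly brain, whose intrinsic neurons are the Kenyon cells. Of the 35 genes, 33 had an identifier among the 17559 counted gene identifiers and 30 had any count.

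The study asked what part Bap60 plays in neuronal gene expression. Bap60 belongs to the core of SWI/SNF, which remodels chromatin. Nuclei were purified by INTACT, an affinity capture of nuclei that carry a GFP-tagged UNC84 protein in the nuclear envelope. There were 5 mature knockdown, 5 mature control, 2 juvenile knockdown and 3 juvenile control libraries. Mature flies were 1 to 5 days old and juvenile flies 0 to 3 hours past eclosion. All flies were male and carried UAS-unc84::GFP/+ and the R14H06-Gal4 driver. Knockdown flies also carried UAS-Bap6032503, and control flies carried UAS-mCherryRNAi, a hairpin against a red fluorescent protein that flies lack. The same driver ran tag and hairpin, so capture was aimed at the cells in which R14H06-Gal4 is active. Genes that mark other tissues were also counted, as given below. Levels are therefore those of the purified samples and not of Kenyon cells alone. Effects of the hairpins themselves or of their insertion sites cannot be told apart from the loss of Bap60. Whether replicate libraries stem from different flies is not stated in the labels. The p-values thus reflect library-to-library spread, part of which may be technical.

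Sodium and calcium channels carry inward current and potassium channels carry outward current. Voltage-gated sodium channels drive the action potential, and calcium channels couple it to transmitter release and to signalling. Potassium channels repolarise the membrane, set firing rate and delay, and hold the resting potential, while the sodium leak channel depolarises it. Auxiliary subunits change how many pores reach the membrane and how fast they gate. In flies, mutations in several of these genes were found through shaking, paralysis, altered sleep or altered circadian behaviour.

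The counts behaved as counts over whole genes, introns included, without regard to strand. Of 375 protein-coding genes that lie inside an intron of a gene on the same strand, 375 had no count, and of 873 on the opposite strand 871 had none, against 682 of 12262 genes that lie in no other gene. Channel genes are long, with a median span of 24.3 kb against 3.13 kb over the genes compared for level, and intron made up a median of 65.2% of their span. Levels between genes are therefore given as CPM (read counts scaled to a common library size) per kilobase of gene span that no other gene covers. Of the 30 genes with a count, 15 overlapped another gene, and their counts are uncertain to that extent. The share of the span outside other genes was 15.5% for tipE and at least 71.3% for the other 29. Teh2, Teh3 and Teh4, auxiliary sodium channel subunits on arm 3L near tipE, had no span outside other genes. They were listed at 0 in every library, which says nothing about their expression. The sodium channel para and the calcium channel subunit Ca-beta were not analysed here, because their present identifiers were not among the counted ones.

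Total gene counts were 17447070 to 37563455 in mature knockdown, 18173548 to 70495790 in mature control, 45547974 to 53143845 in juvenile knockdown and 37879789 to 45731087 in juvenile control libraries. Bap60 averaged 11.2 ± 2.69 CPM in mature knockdown and 17.3 ± 2.61 CPM in mature control libraries (SD, n = 5 each; two-sided exact permutation p = 0.00794, the smallest possible). It averaged 6.33 ± 1.84 CPM in juvenile knockdown (n = 2) and 9.49 ± 3.76 CPM in juvenile control libraries (n = 3; exact p = 0.3, smallest possible 0.1). The biological coefficient of variation was 0.221 over the mature and 0.847 over the juvenile libraries, so knockdown was fitted within each age. Summed CPM of 11 Kenyon cell markers was 14770 to 20590 in mature knockdown, 13600 to 20680 in mature control, 10370 to 10810 in juvenile knockdown and 12280 to 18100 in juvenile control libraries. Muscle markers (9 of 10 with a count, Mf at 0) summed to 4241 to 23060 CPM in mature knockdown, 3935 to 23410 CPM in mature control, 14460 to 17610 CPM in juvenile knockdown and 8391 to 11470 CPM in juvenile control libraries. Fat body markers (8 of 9 with a count, Npc2e at 0) summed to 2032 to 3831 and 2238 to 3066 CPM in mature knockdown and control libraries, and to 463 to 485 and 363 to 425 CPM in the juvenile ones. Photoreceptor markers (13 of 14 with a count, Arr2 at 0) summed to 6789 to 10520 CPM in mature knockdown and 5402 to 11740 CPM in mature control libraries. They summed to 3520 and 4291 CPM in juvenile knockdown and to 5233, 5370 and 6004 CPM in juvenile control libraries, which did not overlap. In juvenile knockdown flies 5 of the 13 were called lower, against 1.88% of all genes. The marker trpl went the other way, at 414.0 to 438.6 CPM in juvenile knockdown and 299.0 to 346.5 CPM in juvenile control libraries. The juvenile groups overlapped for norpA, Rh4 and Rh5. Markers of other neurons (8 of 9 with a count, Tdc2 at 0) summed to 1267 to 1767 CPM in mature knockdown, 1116 to 2500 CPM in mature control, 1492 and 2855 CPM in juvenile knockdown, and 3815 to 4401 CPM in juvenile control libraries. In mature knockdown library 2 and mature control library 4 the muscle sums, 23060 and 23410 CPM, lay above the Kenyon cell sums, 15000 and 14440 CPM. In such bulk samples, fewer cells of a type and less RNA per cell cannot be told apart.

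The channel genes took 2.76 ± 0.235% of all gene counts in mature knockdown and 2.49 ± 0.221% in mature control libraries (SD, n = 5 each). They took 2.78 ± 0.291% in juvenile knockdown (n = 2) and 2.60 ± 0.465% in juvenile control libraries (n = 3). In mature controls 24 of the 30 genes lay above the median of 8799 genes, 5.59 CPM per kb, and 18 lay in the top 25%. The top and bottom genes, qvr and sand, differed 71.1-fold. Ordered by level, 25 of 29 neighbouring pairs had overlapping libraries, and the pairs that stood apart were qvr and slo, Ca-alpha1T and SLO2, eag and Irk2, and KCNQ and Teh1.

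**Figure D1:**
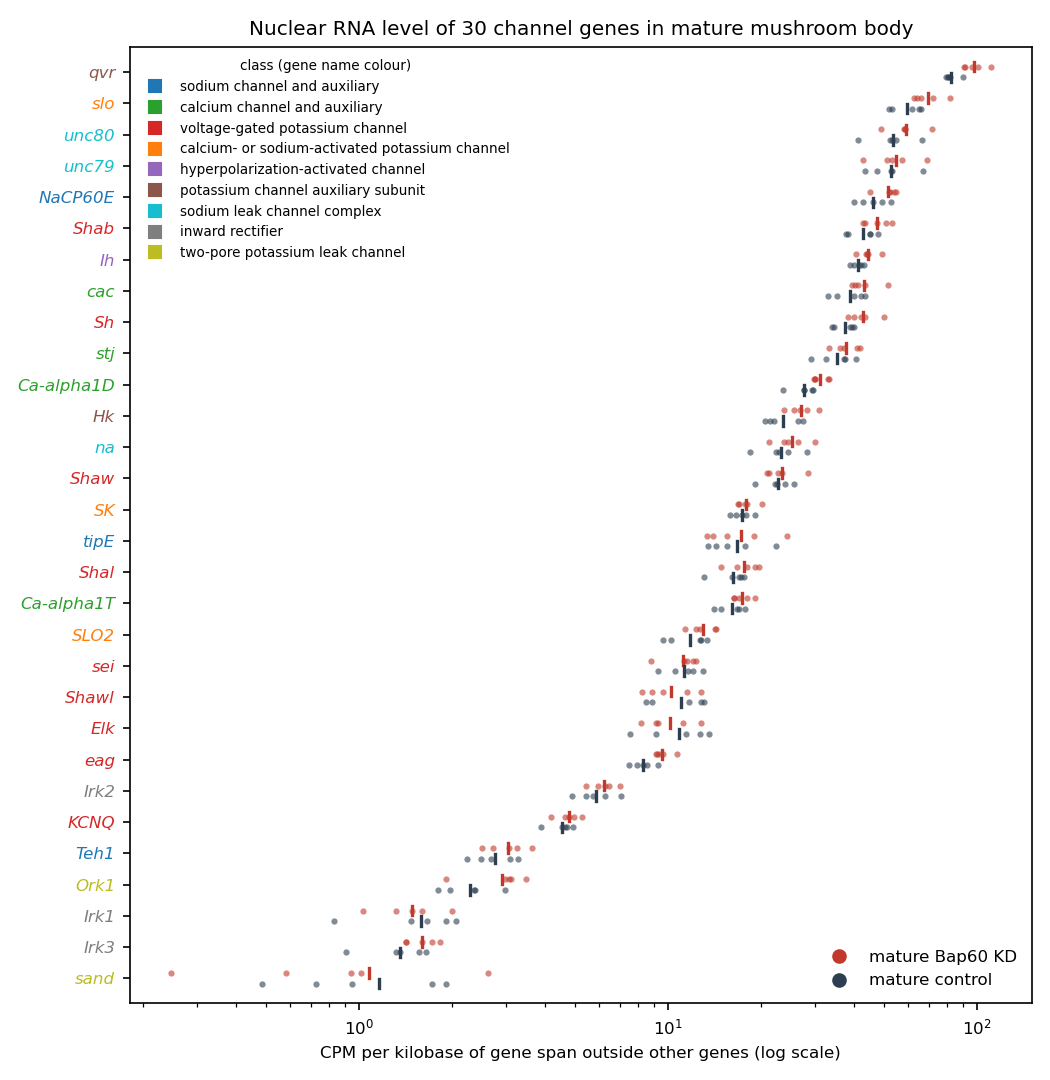
Level of the 30 channel genes in mature libraries, in CPM per kilobase of gene span outside other genes on a log axis, ordered by the control mean; dots are libraries, bars are means, red is mature Bap60 knockdown and dark blue mature control, 5 libraries each. The genes run from qvr at 82.6 to sand at 1.16 CPM per kb in controls, and the knockdown and control dots overlap for 28 of the 30.

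Among sodium channel genes, NaCP60E, a further member of the sodium channel alpha family, had 46.2 ± 5.01 CPM per kb in mature controls. Its libraries read 1431, 1199, 1455, 1376 and 1383 CPM in mature knockdown, 1398, 1062, 1138, 1226 and 1307 CPM in mature control, 1510 and 1567 CPM in juvenile knockdown, and 1094, 1414 and 1316 CPM in juvenile control flies. Both juvenile knockdown libraries lay above the juvenile controls, and the mature groups overlapped. The auxiliary subunit tipE, which raises sodium current through Para, stood at 16.7 ± 3.58 CPM per kb, and its homolog Teh1 at 2.75 ± 0.424 CPM per kb. The value of tipE rests on 820 bases of own span. Dividing the counts by exon length turned the order round, with 3.35 for tipE and 25.5 for Teh1. That cannot settle the order. The exons of tipE cover 4084 bases, more than its own span, and Teh1 has 42040 bases of counted span over 4539 bases of exon.

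Of the calcium channel pore subunits, cac was highest in mature controls at 38.7 ± 4.43 CPM per kb. It encodes the presynaptic channel that triggers transmitter release. Its CPM was 2344, 2122, 2782, 2166 and 2215 in mature knockdown, 2148, 1774, 2263, 1898 and 2331 in mature control, 1949 and 1694 in juvenile knockdown, and 1517, 2245 and 2121 in juvenile control libraries. The groups overlapped at each age. Ca-alpha1D, the L-type channel, had 27.5 ± 2.40 CPM per kb, and Ca-alpha1T, the low-voltage-activated T-type channel, 16.1 ± 1.53. The auxiliary alpha2-delta subunit stj had 35.3 ± 4.60 CPM per kb. Its libraries read 574, 458, 565, 498 and 510 CPM in mature knockdown, 561, 400, 510, 447 and 516 CPM in mature control, 546.7 and 526.4 CPM in juvenile knockdown, and 435.7, 624.5 and 551.1 CPM in juvenile control flies, with overlap at both ages.

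The 17 potassium pore genes were dominated by a few. Per kilobase, the large-conductance calcium-activated channel slo made up 23.8 ± 0.769% of their sum in mature knockdown and 22.3 ± 0.840% in mature control libraries (SD, n = 5 each). The delayed rectifier Shab made up 16.4 ± 0.672% in mature knockdown and 16.1 ± 0.610% in mature control libraries, and the fast inactivating channel Sh 14.7 ± 0.518% and 14.1 ± 0.433%. In juvenile controls slo took 19.3 ± 1.20%, Shab 15.3 ± 0.437% and Sh 15.2 ± 1.08% (SD, n = 3). slo had 3547, 3232, 4009, 3149 and 3062 CPM in mature knockdown, 3020, 2601, 3186, 2545 and 3225 CPM in mature control, 2915 and 2302 CPM in juvenile knockdown, and 1977, 3052 and 2948 CPM in juvenile control libraries. Shab had 3126, 2912, 3274, 2634 and 2665 CPM in mature knockdown, 2950, 2311, 2778, 2354 and 2767 CPM in mature control, 3347 and 2684 CPM in juvenile knockdown, and 2052, 2943 and 2910 CPM in juvenile control libraries. For both genes knockdown and control libraries overlapped at each age. Shaw (22.7 CPM per kb) and Shal (16.2), a delayed rectifier and a somatodendritic A-type channel, came next among the voltage-gated genes. The ether-a-go-go group followed with sei at 11.3, Elk at 10.9 and eag at 8.30 CPM per kb, beside Shawl at 11.01. KCNQ, the M-type channel, was lowest of the 9 at 4.55 CPM per kb. This order depended on the length used. With the same counts, intron reads included, divided by exon length, sei was lowest at 13.8. Shawl (66.1) and Elk (95.8) then stood above Shal (62.3), Shaw (49.7), KCNQ (48.7) and eag (42.5). SK and SLO2, the other calcium- or sodium-activated channels, had 17.4 and 11.8 CPM per kb.

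Ih, the hyperpolarization-activated channel, had 41.1 ± 1.69 CPM per kb in mature controls. The highest level of all belonged to qvr, 82.6 ± 4.21 CPM per kb, which encodes a membrane-anchored protein that regulates Shaker and sleep. It lay above the next gene, slo, in all 5 control libraries, without overlap. Hk, the beta subunit of Shaker, had 23.5 ± 3.03 CPM per kb. Dividing the same counts, intron reads included, by exon length put slo first and qvr in place 5. Such values rise with intron length, so they do not give an order of exon signal. The 2 orders had a Spearman correlation of 0.728 across the 30 genes.

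The sodium leak complex, which sets resting excitability and circadian output, had its auxiliary proteins unc80 and unc79 at 53.5 ± 8.93 and 52.7 ± 8.96 CPM per kb and its pore gene na at 23.3 ± 3.55. The libraries of unc80 read 1052, 715, 849, 860 and 856 CPM in mature knockdown, 972, 603, 779, 769 and 802 CPM in mature control, 761 and 949 CPM in juvenile knockdown, and 536, 779 and 730 CPM in juvenile control flies. The groups overlapped at both ages. At the low end were the potassium genes that act near rest. The inward rectifiers Irk2, Irk1 and Irk3 had 5.87, 1.59 and 1.36 CPM per kb, and the tandem-pore leak channels Ork1 and sand 2.30 and 1.16 CPM per kb. Ork1 is an open leak channel, and sand tunes the excitability of sleep-control neurons.

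In mature flies, none of the 30 channel genes passed the test between Bap60 knockdown and control. In edgeR's quasi-likelihood F-test with Benjamini-Hochberg adjustment over 9175 genes, 0 of 30 had an adjusted p under 0.05, against 0.142% of all genes (0.0545% higher, 0.0872% lower). An unadjusted p under 0.05 was found for 2 of 30, against 867 of all genes. The count was also 0 in DESeq2, in limma-voom and with the replicate number as a block, which called 0.992%, 1.14% and 1.24% of all genes. Log2 fold changes ran from -0.12 (Shawl) to 0.33 (Ork1). Their median was 0.11, with 25 above 0. The median was -0.01 over all genes and 0.06 over 1706 genes with 10 kb or more outside other genes. For 26 of the 30 the 95% interval stayed within a 1.5-fold change, against 62.6% of all genes and 80.6% of the long ones. The exceptions were Ork1, Irk1, Irk3 and sand, all of low level.

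The genes with an unadjusted p under 0.05 were qvr and eag. qvr had 831.1, 877.5, 1010, 828.6 and 914.0 CPM in mature knockdown, 723, 745, 736, 735 and 818 CPM in mature control, 1022 and 735 CPM in juvenile knockdown, and 771, 978 and 989 CPM in juvenile control libraries. All 5 mature knockdown libraries lay above all 5 mature controls, with the highest control close below. Its log2 fold change was 0.24 (SE 0.0800, 95% interval 0.06 to 0.41; edgeR adjusted p = 0.386). The potassium channel eag had a log2 fold change of 0.20 (95% interval 0.03 to 0.37; edgeR adjusted p = 0.458) and overlapping libraries. Ca-alpha1D was the other gene whose mature knockdown libraries all lay above the controls, at 707 to 790 CPM in mature knockdown and 561 to 701 CPM in mature control libraries (log2 0.17, edgeR adjusted p = 0.529). So 2 of 30 genes had all knockdown libraries above and 0 had all below, against 0.872% and 1.25% of all genes. Set side by side by replicate number, the knockdown library was the higher in all 5 pairs for 8 of 30 genes and the lower in all 5 for 0, against 8.35% and 8.49% of all genes and 17.5% and 5.57% of the long ones. The 8 genes were eag, Ca-alpha1D, Sh, Shal, Ork1, unc80, NaCP60E and qvr, and none was called with the replicate block. The pairing by number is uncertain, since over all genes the libraries numbered 2 and 4 were not each other's best match.

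**Figure D2:**
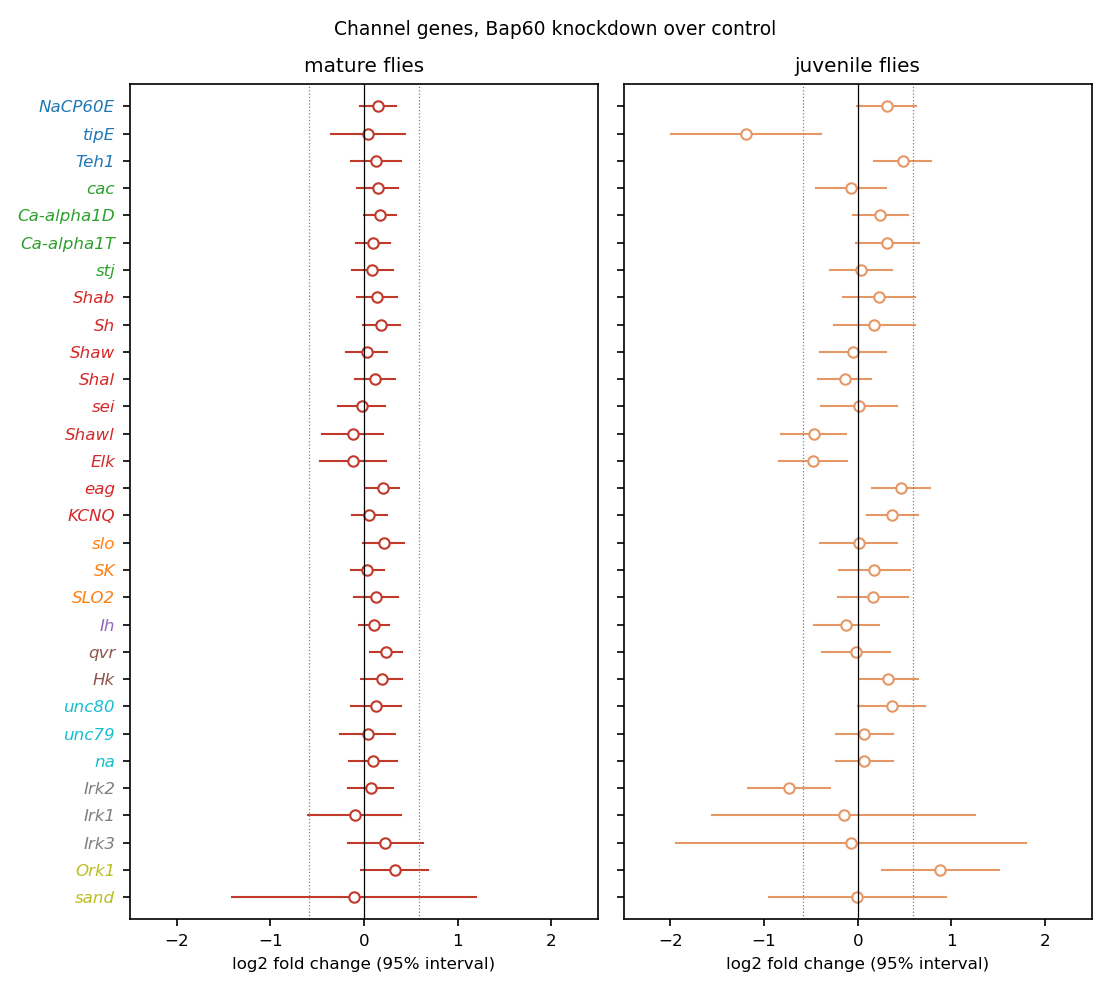
Log2 fold change of each channel gene, Bap60 knockdown over control, with its 95% interval from edgeR, in mature flies (left, 5 against 5 libraries) and juvenile flies (right, 2 against 3); dotted lines mark 1.5-fold, and gene names are coloured by class as in the plot of levels. No gene was called at either age, and the juvenile points spread from -1.19 (tipE) to 0.88 (Ork1), the mature ones from -0.12 to 0.33.

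In juvenile flies the channel genes spread more widely, and again none passed. In edgeR's test over 11739 genes 0 of 30 were called, against 3.3% of all genes (1.41% higher, 1.88% lower), while 10 had an unadjusted p under 0.05. An unadjusted p under 0.05 was found for 1634 of all genes and for 552 of the 1722 long genes, 9.0% of which were called. The median log2 fold change was 0.05, against 0.01 over all genes, and 13 of 30 intervals (43.3%) stayed within 1.5-fold, against 13.6% of all genes. Among 1722 genes with 10 kb or more outside other genes the median was 0.12 and 44.9% of intervals stayed within 1.5-fold, a share close to that of the channel genes. All knockdown libraries lay above the controls for 8 genes and below them for 4, against 15.1% and 15.5% of all genes. With 2 knockdown and 3 control libraries these counts rest on few values. Calls of channel genes ranged from 0 to 6 over the other settings, given below with the processing.

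The lowest ratio was that of tipE, with 5.94 and 6.48 CPM in juvenile knockdown and 12.3, 20.5 and 10.8 CPM in juvenile control libraries. Both knockdown libraries lay below every control (log2 -1.19, 95% interval -1.99 to -0.39; edgeR adjusted p = 0.111). Its relative Teh1 had 230 and 214 CPM in juvenile knockdown and 149, 189 and 151 CPM in juvenile control libraries. The knockdown libraries lay above the controls here (log2 0.48, 95% interval 0.18 to 0.78; edgeR adjusted p = 0.0895).

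Irk2 had 32.4 and 44.1 CPM in juvenile knockdown and 72.4, 68.6 and 54.4 CPM in juvenile control libraries, with no overlap. Its log2 fold change was -0.74 (95% interval -1.18 to -0.29; edgeR adjusted p = 0.0711), and 7 of 13 other settings called it. Among those was the replicate block, though juvenile libraries of the same number did not deviate together. The leak channel Ork1 went the other way, with 26.5 and 33.6 CPM in juvenile knockdown and 22.9, 12.8 and 14.1 CPM in juvenile control libraries (log2 0.88, 95% interval 0.26 to 1.503; edgeR adjusted p = 0.131). Irk1 (log2 -0.15, 95% interval -1.55 to 1.26) and Irk3 (-0.07, -1.94 to 1.79) had overlapping libraries and wide intervals.

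Among voltage-gated potassium genes, eag had 690 and 582 CPM in juvenile knockdown and 410, 505 and 501 CPM in juvenile control libraries (log2 0.46, edgeR adjusted p = 0.104). KCNQ had 243 and 246 CPM in juvenile knockdown and 180, 206 and 196 CPM in juvenile control libraries (log2 0.37, edgeR adjusted p = 0.158). In both genes the knockdown libraries were the higher ones. Elk had 350 and 430 CPM in juvenile knockdown and 461, 675 and 533 CPM in juvenile control libraries (log2 -0.48, edgeR adjusted p = 0.167). Shawl had 269 and 300 CPM in juvenile knockdown and 324, 481 and 408 CPM in juvenile control libraries (log2 -0.47, edgeR adjusted p = 0.151). Both were lower in knockdown without overlap. The sum of 11 Kenyon cell markers was also lower in these libraries, 10810 and 10370 CPM against 12280, 18100 and 16980 CPM. Of the 11, mub, prt, sNPF, rut and Pka-C1 lay below the controls, and ey, toy, dac, Fas2, trio and ab overlapped with them. The part of the marker difference in the Elk and Shawl results was not tested. Hk (log2 0.33, edgeR adjusted p = 0.333) and unc80 (0.36, 0.350) complete the 10 genes with an unadjusted p under 0.05.

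Between ages, 4 of 30 channel genes passed in knockdown flies and 6 in control flies. In knockdown flies the sodium channel subunit tipE was higher in mature than in juvenile libraries, and Irk1, Teh1 and Ca-alpha1T were lower. In controls the potassium leak channel Ork1 was higher in mature libraries, and Irk1, Irk2, Teh1, Ih and Ca-alpha1T were lower. In edgeR's test over 11997 genes on all 15 libraries, 34.2% of all genes were called in knockdown flies (17.8% higher, 16.4% lower) and 22.0% in controls (12.2% higher, 9.87% lower). The share of channel genes called was 13.3% in knockdown flies, below the share of all genes, and close to it in controls, 6 of 30. Voltage-gated potassium, calcium- or sodium-activated potassium and sodium leak genes gave no call in this fit in either genotype, 0 of 15 in each. Of 24 other settings in knockdown flies, 5 called eag, 8 called KCNQ and 3 called sei, each lower in mature libraries. In controls 2 of 24 called sei, also lower. The UNC84 tag was a counted entry in the mature libraries and not in the juvenile ones. Reads outside genes made up 1.118 to 1.651% in mature and 1.656 to 2.838% in juvenile libraries. Age therefore cannot be told apart from a difference in how the libraries were processed.

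**Figure D3:**
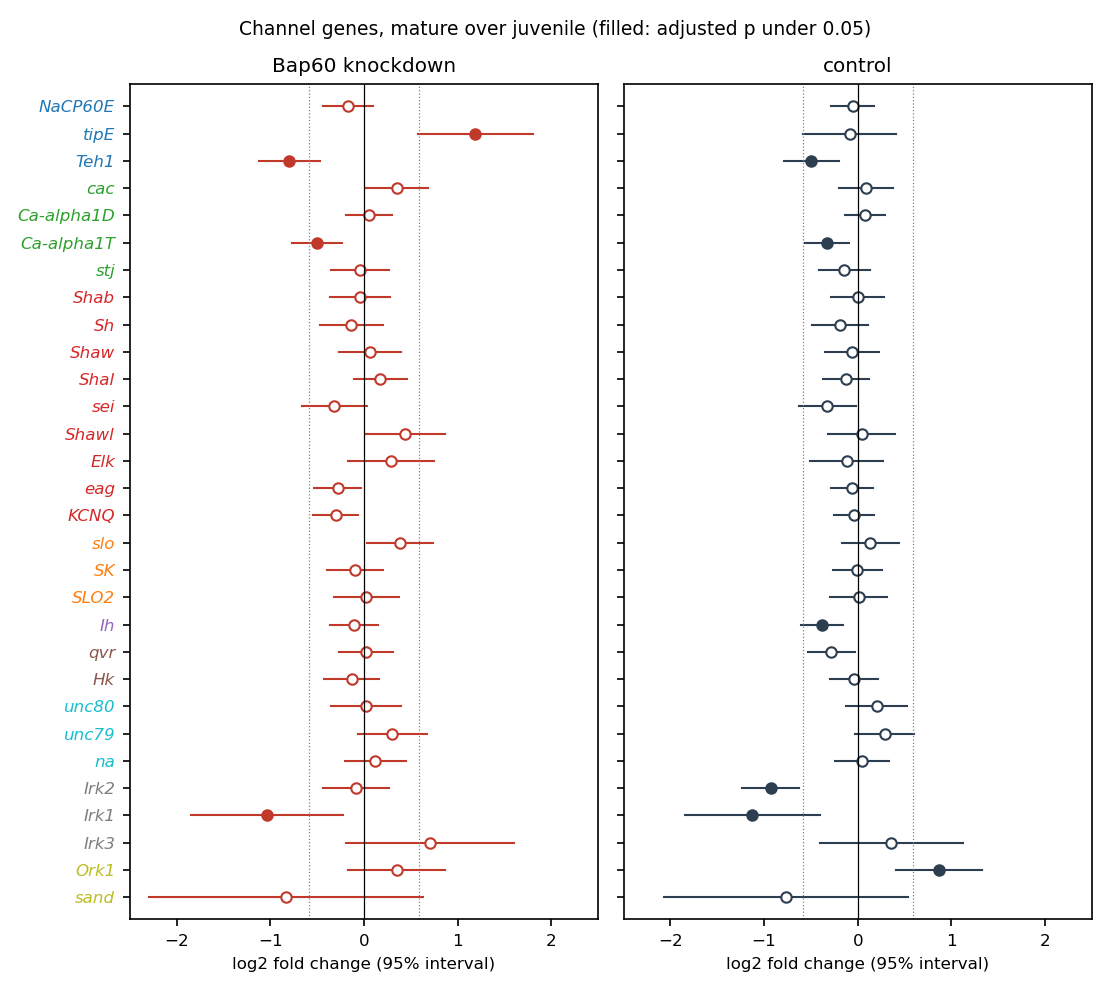
Log2 fold change of each channel gene, mature over juvenile flies, with its 95% interval from edgeR, in Bap60 knockdown (left, 5 mature and 2 juvenile libraries) and control flies (right, 5 and 3); filled points had an adjusted p under 0.05 and dotted lines mark 1.5-fold. In knockdown flies 24 of 30 points and in controls 26 of 30 lay within 0.5 of 0 on the log2 scale.

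Most channel genes differed little with age. The median size of the log2 fold change was 0.23 in knockdown flies, against 0.72 over all genes and 0.46 over the long genes. In controls it was 0.13, against 0.54 and 0.31. In knockdown flies 24 of 30 genes lay within 0.5 of 0 on the log2 scale, against 37.5% of all genes and 54.5% of the long ones. In controls 26 of 30 did, against 47.4% and 67.7%. The 95% interval stayed within 1.5-fold for 17 of 30 genes in knockdown flies and for 21 in controls, against 11.6% and 19.4% of all genes and 30.5% and 46.2% of the long ones. In knockdown flies all mature libraries lay above the juvenile ones for 5 genes and below them for 5, against 24.5% and 26.9% of all genes. In controls they lay above for 1 gene and below for 3, against 15.6% and 10.9%. The median log2 fold change itself was -0.01 in knockdown flies and -0.06 in controls. Without the first juvenile knockdown library the knockdown median was 0.14.

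Irk2 (3R:23513617-23519445, minus strand) gave the call that held in every setting in controls. Its CPM was 31.6, 36.5, 34.6, 37.5 and 40.7 in mature knockdown, 28.6, 33.2, 36.5, 41.1 and 31.6 in mature control, 32.4 and 44.1 in juvenile knockdown, and 72.4, 68.6 and 54.4 in juvenile control libraries. The juvenile controls stood above all other libraries, and the other 3 groups overlapped. In knockdown flies the log2 difference between mature and juvenile libraries was -0.08 (95% interval -0.43 to 0.27; edgeR adjusted p = 0.727). Irk2 was 1.91-fold lower in mature than in juvenile controls (log2 -0.93, SE 0.144; edgeR adjusted p = 1.84e-04). Juvenile knockdown against control and mature against juvenile controls share the juvenile control libraries. Irk1 (3R:23168317-23185642, plus strand) had 17.8, 34.6, 22.7, 27.7 and 25.7 CPM in mature knockdown, 14.4, 28.6, 25.4, 35.6 and 33.0 CPM in mature control, 52.0 and 53.2 CPM in juvenile knockdown, and 43.4, 32.7 and 103 CPM in juvenile control libraries. The knockdown ages did not overlap, and the control ages did.

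Irk1 was lower in mature flies (log2 -1.03 in knockdown flies, SE 0.378, edgeR adjusted p = 0.0479, and -1.13 in controls, SE 0.337, adjusted p = 0.0273). The third juvenile control library, at 103 CPM, carried much of the control difference. Without it the log2 fold change was -0.47 (edgeR adjusted p = 0.211), and without the third mature control library the adjusted p was 0.0664. In knockdown flies leaving out any of 10 libraries ended the call, with edgeR adjusted p of 0.0511 to 0.189, the highest without the first juvenile knockdown library.

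Ork1 (X:10878054-10891250, minus strand) had 25.2, 39.1, 40.9, 45.8 and 40.4 CPM in mature knockdown, 23.8, 31.2, 26.0, 39.1 and 31.4 CPM in mature control, 26.5 and 33.6 CPM in juvenile knockdown, and 22.9, 12.8 and 14.1 CPM in juvenile control libraries. All mature controls lay above all juvenile controls, with a narrow gap, and the knockdown ages overlapped. In knockdown flies the log2 difference was 0.35 (95% interval -0.17 to 0.87; edgeR adjusted p = 0.280). In controls Ork1 was 1.82-fold higher in mature libraries (log2 0.87, SE 0.219; edgeR adjusted p = 0.00834).

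The sodium channel subunit Teh1 (3R:9826081-9868120, minus strand) had 105.2, 114.5, 153.1, 128.3 and 136.7 CPM in mature knockdown, 112, 105, 94.3, 129 and 138 CPM in mature control, 230 and 214 CPM in juvenile knockdown, and 149, 189 and 151 CPM in juvenile control libraries. Mature libraries lay below juvenile ones without overlap in both genotypes. Teh1 was 1.74-fold lower in mature knockdown than in juvenile knockdown flies (log2 -0.80, SE 0.156; edgeR adjusted p = 9.67e-04). In controls it was 1.41-fold lower (log2 -0.49, SE 0.139; edgeR adjusted p = 0.0159). The control call was lost without the second juvenile control (adjusted p = 0.103) or the third mature control library (0.0775).

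tipE (3L:4188499-4193788, plus strand), on the small part of its span outside other genes, had 12.78, 10.99, 19.93, 11.49 and 15.61 CPM in mature knockdown and 11.7, 11.1, 14.5, 12.7 and 18.4 CPM in mature control libraries. Set against the juvenile values above, all mature knockdown libraries lay above both juvenile knockdown libraries, and the control ages overlapped. It was 2.28-fold higher in mature knockdown than in juvenile knockdown flies (log2 1.19, SE 0.291; edgeR adjusted p = 0.00462). In controls the log2 difference was -0.09 (95% interval -0.58 to 0.41; edgeR adjusted p = 0.816).

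Ca-alpha1T (X:6104085-6192483, minus strand) had 1591, 1444, 1695, 1449 and 1497 CPM in mature knockdown, 1567, 1250, 1309, 1475 and 1505 CPM in mature control, 2314 and 2034 CPM in juvenile knockdown, and 1493, 1977 and 1897 CPM in juvenile control libraries. Mature knockdown libraries lay below juvenile ones, and the control ages overlapped. It was 1.42-fold lower in mature knockdown flies (log2 -0.50, SE 0.127; edgeR adjusted p = 0.00572), a call lost without the first juvenile knockdown library (0.224). In controls it was 1.26-fold lower (log2 -0.33, SE 0.112; edgeR adjusted p = 0.0406), and leaving out any of 9 libraries ended that call, with adjusted p of 0.0501 to 0.182. The hyperpolarization-activated channel Ih (2R:14276130-14300095, plus strand) had 1052, 1060, 1184, 976 and 1061 CPM in mature knockdown, 1031, 930, 960, 994 and 1011 CPM in mature control, 1294 and 1005 CPM in juvenile knockdown, and 1102, 1396 and 1342 CPM in juvenile control libraries. Mature controls lay below juvenile controls, and the knockdown ages overlapped. Ih was 1.30-fold lower in mature controls (log2 -0.38, SE 0.107; edgeR adjusted p = 0.0159), a call lost without juvenile control library 2 (0.0920) or 3 (0.0740) or mature control library 3 (0.0811).

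**Figure D4:**
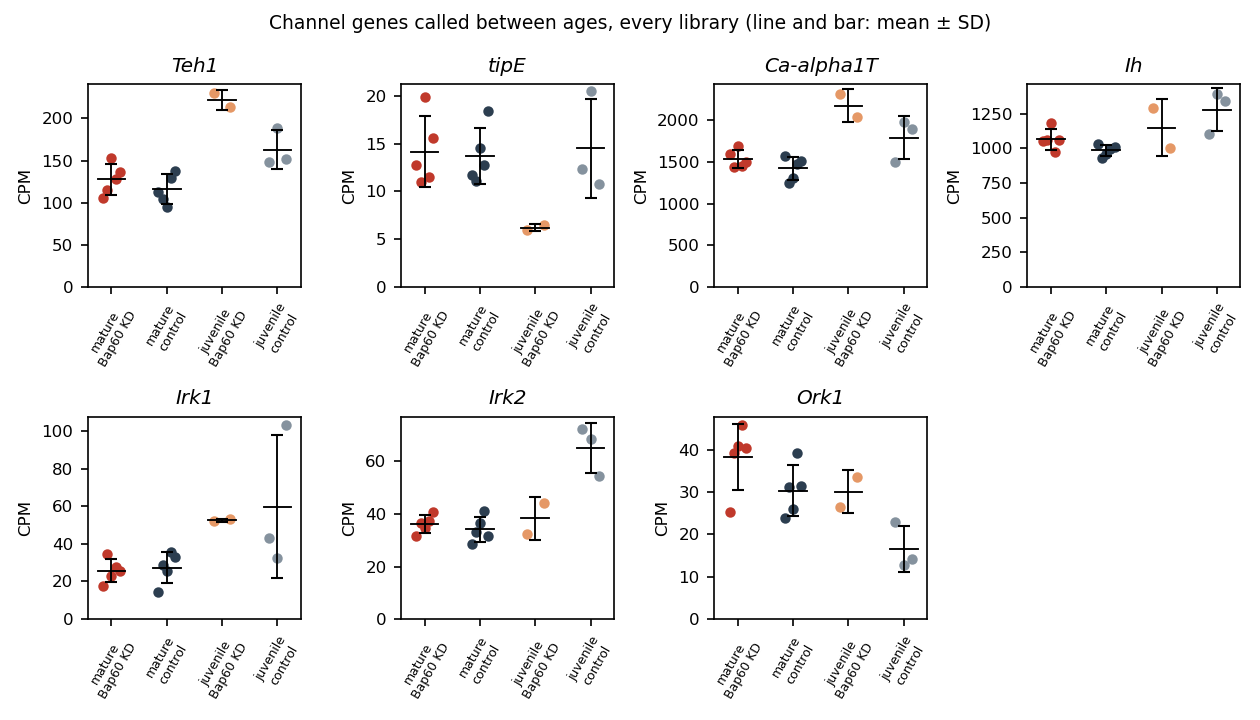
CPM of the 7 channel genes called between ages in either genotype, for every library, with a line at the mean and a bar of ± SD; groups from left to right are mature Bap60 knockdown, mature control, juvenile Bap60 knockdown and juvenile control (5, 5, 2 and 3 libraries). For Irk2 the 3 juvenile controls stand at 54.4 to 72.4 CPM above all other libraries, and for tipE the juvenile knockdown libraries at 5.94 and 6.48 CPM below all others.

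The M-type channel KCNQ lay at the threshold in knockdown flies, with 174 to 218 CPM in mature and 243 and 246 CPM in juvenile knockdown libraries, which did not overlap (log2 -0.30, SE 0.115; edgeR adjusted p = 0.0506). It was called with RLE and upper-quartile scaling, the stricter filter and DESeq2, and with the compared groups fitted alone. Leaving out the first juvenile control, the second mature control or the third mature knockdown library also gave a call.

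These age calls depended on how the spread was estimated. When each age received its own variance weight in limma-voom, the call of Irk2 was the 1 of 6 left in controls, and the other adjusted p were 0.0705 (Ork1), 0.0799 (Ih), 0.104 (Irk1), 0.119 (Teh1) and 0.158 (Ca-alpha1T). In knockdown flies tipE, Teh1 and Ca-alpha1T were still called by that fit, and Irk1 was not (0.102). Markers of several cell types also differed with age. In mature against juvenile knockdown flies 6 of 11 Kenyon cell and 8 of 13 photoreceptor markers were called higher and 0 lower, against 34.2% of all genes in both directions. In controls 1 of 11 and 3 of 13 were called higher and 0 and 2 lower, against 22.0%. The summed markers of other neurons were lower in all mature than in all juvenile control libraries. The largest part in juvenile controls was ple, at 2657 to 3242 CPM, against 104.4 to 1179 CPM in mature controls. VGAT and trh were also lower in mature controls, Vmat was higher, and VGlut, Gad1, SerT and DAT overlapped. Summed fat body markers were higher in mature libraries of both genotypes. Most of that sum in mature libraries was apolpp, with 1969 to 2698 CPM in mature and 120.9 to 177.7 CPM in juvenile controls. Lsp2 and Apoltp were also higher in both genotypes, Lsd-1 and Yp2 lower in both, and Yp1, Yp3 and Fbp1 overlapped. Glial markers (6 of 8 with a count, moody and alrm at 0) summed to 622 to 912 and 638 to 1030 CPM in mature knockdown and control libraries, and to 1030 to 1267 and 1324 to 1400 CPM in the juvenile ones. The largest glial marker, Gs2, had 403.0 to 689.2 CPM in mature and 946.7 to 1041 CPM in juvenile controls. Gs2 and Gli were lower in mature libraries of both genotypes, and Gat in controls alone. The marker wrapper was higher in both genotypes and repo in knockdown flies, and Eaat1 overlapped. The part of all these markers in the age differences of channel genes was not tested.

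No channel gene had a knockdown effect that passed a test of difference between ages. In edgeR's interaction test 0 of 30 were called, against 1.55% of all genes (1.28% higher, 0.275% lower). An unadjusted p under 0.05 was found for 2 of 30, against 1955 of all 11997 genes. These were Irk2 (difference of log2 fold changes, mature minus juvenile, 0.85, SE 0.226; edgeR adjusted p = 0.0675) and tipE (1.28, SE 0.368; adjusted p = 0.0878). DESeq2 called both. Leaving out the second juvenile knockdown or the third juvenile control library brought the edgeR adjusted p of Irk2 to 0.0463 and 0.0394. The median difference over the 30 genes was 0.04, against -0.03 over all genes.

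Some channel genes varied together with the Kenyon cell marker level within the mature groups. The summed markers stood at 20590, 15000, 20130, 14770 and 16270 CPM in mature knockdown libraries 1 to 5 and at 19360, 13600, 20680, 14440 and 18030 CPM in mature control libraries 1 to 5. Elk had 603, 384, 527, 437 and 431 CPM in mature knockdown and 641, 355, 597, 431 and 538 CPM in mature control libraries. Shawl had 482, 311, 435, 363 and 335 CPM in mature knockdown and 494, 321, 484, 337 and 443 CPM in mature control libraries. Both genes were highest in libraries 1 and 3 of each group, where the markers were highest as well. The tandem-pore channel sand was lowest there, with 1.26, 13.4, 2.97, 5.18 and 4.82 CPM in mature knockdown and 2.49, 8.81, 3.71, 9.73 and 4.84 CPM in mature control libraries. Its peaks fell in knockdown library 2 and control library 4, which also had the highest muscle markers, 23060 and 23410 CPM. Irk1 was highest in the same libraries, at 34.6 and 35.6 CPM. Since libraries of the same number tended to deviate together in the mature groups, no correlation is given, and the part of cell composition in these genes was not tested.

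**Figure D5:**
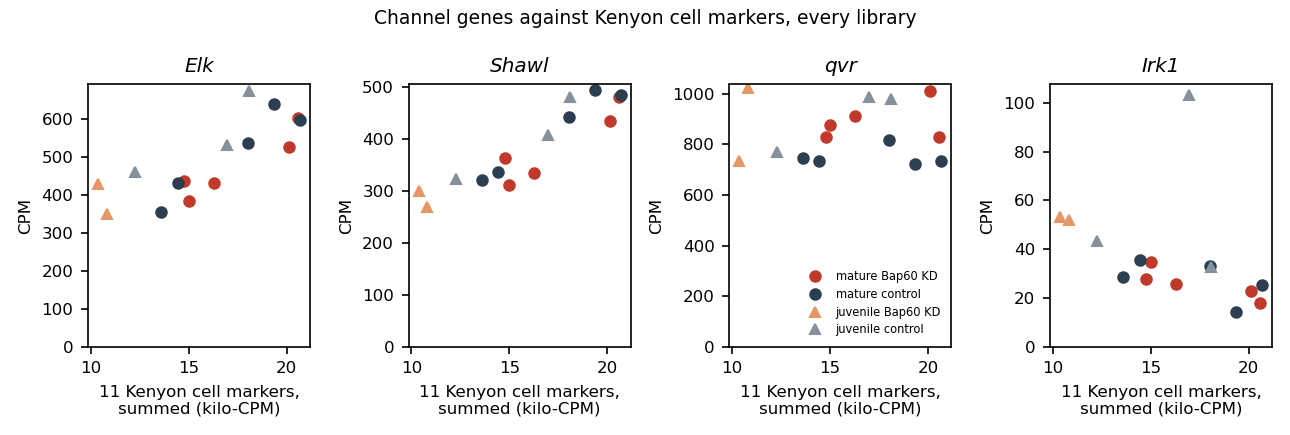
CPM of Elk, Shawl, qvr and Irk1 against the summed CPM of 11 Kenyon cell markers, with the axis in kilo-CPM, for every library; circles are mature and triangles juvenile, red and orange Bap60 knockdown, dark blue and grey control. Within each mature group Elk and Shawl are highest in the libraries with the highest marker sums, while qvr spans 723 to 1010 CPM in mature libraries without such an order.

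Other channel genes were described from a further list of 15, of which 14 were tested. None was called between mature knockdown and mature control, and 1, Task7, between juvenile knockdown and juvenile control (against 3.3% of all genes). Task7, a tandem-pore potassium channel, had 10.7 and 22.2 CPM in juvenile knockdown and 38.37, 50.01 and 40.91 CPM in juvenile control libraries, with no overlap (log2 -1.35, SE 0.291; edgeR adjusted p = 0.0233). In knockdown flies 5 of the 14 were lower in mature flies and 2 higher, with Task7 (log2 0.96, edgeR adjusted p = 0.00669) among the higher, against 16.4% and 17.8% of all genes. In controls 6 were lower and 0 higher, against 9.87% and 12.2%. Leaving out the first juvenile knockdown library ended the Task7 call (0.124). The largest falls in mature controls were those of the cation channels Trpgamma (log2 -1.57, edgeR adjusted p = 1.88e-04) and TrpA1 (-0.98, 0.00749) and of the calcium-activated chloride channel subdued (-0.68, 5.77e-04). These 3 also fell in mature knockdown flies, by 1.51, 1.66 and 0.81 on the log2 scale. All 3 are of low level, with 2.53 to 4.41, 3.28 to 5.98 and 32.8 to 42.5 CPM in mature controls. The chloride channel ClC-a was lower in mature knockdown flies (log2 -0.99, edgeR adjusted p = 0.00710), and stol, an alpha2-delta subunit like stj, was higher (0.46, 0.0185). Leaving out either juvenile knockdown library also ended the stol call (edgeR adjusted p = 0.0553 and 0.125). It was lost with 1 variance weight per age (limma-voom adjusted p = 0.143), as was that of ClC-a in knockdown flies (0.0793), which also ended without the second juvenile knockdown library (edgeR adjusted p = 0.0938). That of TrpA1 in controls ended without the first juvenile control library (0.0747).

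Ion pumps, exchangers and channel modulators formed a list of 23, with 21 tested. Adar and Ank2 were listed at 0 in every library, and Ank2 has no span outside other genes. None was called between mature knockdown and mature control. In juvenile knockdown flies RyR, the calcium release channel of the endoplasmic reticulum, was higher (log2 0.76, edgeR adjusted p = 0.0142), as was the chloride cotransporter Ncc69 (0.68, 0.0343). The sodium pump beta subunit nrv2 was lower, with 114.6 and 128.7 CPM in juvenile knockdown and 227, 236 and 218 CPM in juvenile control libraries (log2 -0.87, SE 0.135; edgeR adjusted p = 0.00575). RyR also has a role in muscle, and summed muscle markers were higher in these libraries, 17610 and 14460 CPM in juvenile knockdown against 8391, 9712 and 11470 CPM in juvenile control. Mhc, Act57B, up, Tm2, bt and sls lay above the controls, and Mlc1, Mlc2 and Act88F overlapped with them. The part of that difference in the RyR result was not tested. Leaving out the second juvenile knockdown library or any juvenile control library ended the RyR call (edgeR adjusted p of 0.0523 to 0.150). The calls of Ncc69 ended likewise (0.117 to 0.390). That of nrv2 ended without juvenile control library 2 (0.0758) or 3 (0.0939), and that of Task7 without the first juvenile knockdown (0.0843) or any juvenile control library (0.112 to 0.188).

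In controls the pump subunits nrv3 (log2 -0.84, edgeR adjusted p = 7.54e-04), nrv2 (-0.57, 7.74e-04) and Atpalpha (-0.56, 0.00165) were lower in mature flies. The spectrins beta-Spec (0.77, 1.18e-04) and alpha-Spec (0.52, 0.00106), which anchor channels to the cytoskeleton, were higher, and RyR was also called (0.74, 0.0415). In total 3 of 21 were higher and 4 lower in mature controls, against 12.2% and 9.87% of all genes. In mature knockdown flies 6 of 21 were higher and 0 lower, against 17.8% and 16.4%, led by beta-Spec (log2 1.17, edgeR adjusted p = 1.08e-05), the calcium sensor calmodulin, Cam (0.78, 0.00235), and dysc (0.68, 0.0137), a PDZ protein that affects slo. Without the second juvenile knockdown library Cam (edgeR adjusted p = 0.0707) and dysc (0.141) were not called. The RyR call in controls was lost when any of several libraries was left out, with the highest adjusted p, 0.120, without the first juvenile control. The interaction test called Task7 (1.57) and nrv2 (1.07), given in full below.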

How the data were processed

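Nuclear RNA was sequenced from 15 libraries, and the authors deposited raw read counts per gene. Per the submitters' processing notes, STAR 2.5.3a and HTSeq 0.7.1 were used with the BDGP6 genome. No source used here gives the counting mode, the strand setting or the annotation release. Entries that name no gene were left out of library sizes: reads outside genes (1.118 to 2.838% of reads), ambiguous reads (7.077 to 7.75%) and the UNC84 tag, listed for the 10 mature libraries. Symbols and positions came from the BDGP6.54 annotation, which gave a symbol to 17253 of 17559 identifiers.

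Counts were tested with edgeR 4.0.16 in R 4.3.3 (TMM scaling, filterByExpr with a minimum count of 10 and total of 15, robust quasi-likelihood F-test, Benjamini-Hochberg adjusted p under 0.05). Knockdown was fitted within each age, and age and the interaction on all 15 libraries. CPM used TMM library sizes over all 15. Exon length had been planned for levels, and was replaced by gene span outside other genes once the counts proved to include introns. limma 3.58.1 and DESeq2 1.42.0 gave alternatives, with RLE and upper-quartile scaling, other filters, a replicate block and leaving out each library. Python 3.11.15, pandas 2.3.3 and SciPy 1.17.1 were used for summaries. The fits were tested on simulated data. No pair of replicates agreed within sampling noise (lowest chi-square per degree of freedom 15.78 over 24 pairs).

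The members and all gene lists were chosen with earlier results of these data known. Values of every library are given for channel genes called in any of the 5 comparisons and for the gene of each class with the highest CPM per kb in mature controls. From each further list up to 3 called genes per comparison and direction were named, by size of the log2 fold change. The genes nearest to a call in juvenile flies, and those set beside markers, were chosen after their values were seen. Same-numbered mature knockdown and control libraries deviated together (correlations of 0.559, 0.22, 0.115, 0.219 and 0.159), so the labels' numbers were taken to pair them. For numbers 2 and 4 these libraries were not each other's best match, so that pairing is uncertain. Juvenile libraries of the same number did not deviate together (-0.0391 and 0.0358). The block is therefore read as a pairing for mature libraries alone.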

Additional observations from a re-analysis of the deposited data

Results flagged for a closer look

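The mature control library 5 stood apart from its group for qvr, the regulator of Shaker, at 818.3 CPM, with the other mature controls at 723 to 745 CPM. Among 60 sets of 5 mature libraries examined, 1 was flagged for a distant library, and chance flags about 1 in 20 groups (5%).

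The knockdown effect differed between ages for the potassium channel Task7 and the sodium pump subunit nrv2, both lower in juvenile knockdown flies. For Task7 the mature minus juvenile difference of log2 fold changes was 1.573 (SE 0.319; edgeR adjusted p = 0.0199). Its mature values were 37.5, 25.5, 37.2, 28.6 and 31.1 CPM in knockdown and 32.6, 21.1, 31.0, 26.4 and 29.5 CPM in control libraries, which overlapped. For nrv2 the difference was 1.072 (SE 0.165; edgeR adjusted p = 0.00657), with 141, 173, 183, 170 and 193 CPM in mature knockdown and 143, 171, 154, 150 and 144 CPM in mature control libraries. Neither passed in limma-voom with sample quality weights (adjusted p = 0.117 for Task7 and 0.0770 for nrv2) or with 1 variance weight per age (0.236 for each). The Task7 difference also missed the threshold with a replicate block (edgeR adjusted p = 0.0598) and without the first juvenile knockdown library (0.0874).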

How the results depend on the processing

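No direction of a called channel gene reversed under any alternative tried, and in mature flies 0 channel genes were called between knockdown and control in each of them. Calls between juvenile knockdown and control numbered 1 with upper-quartile scaling, 1 without a filter, 3 with the stricter filter, 4 in DESeq2, 6 in limma-voom with quality weights, 2 with all 15 libraries in the fit and 0 to 1 when a library was left out. Between ages in knockdown flies they numbered 7 with RLE scaling, the stricter filter or DESeq2, and 2 to 6 when a library was left out (2 without the first juvenile knockdown library). In controls they numbered 3 with quality weights, 1 with 1 variance weight per age, 2 at an adjusted p under 0.01, and 2 to 7 when a library was left out (2 without the third mature control, 3 without the second juvenile control). RLE scaling kept the 6 main calls in controls and added qvr, and the stricter filter and DESeq2 added qvr and sei. The interaction gave 2 calls in DESeq2 and 0 to 1 when a library was left out. With a replicate block, calls were 0 in mature knockdown, 1 in juvenile knockdown (Irk2, edgeR adjusted p = 0.0146), 4 between ages in controls, 4 in knockdown flies and 0 for the interaction. Same-numbered juvenile libraries, and those of different ages, did not deviate together, so there the block is no pairing. Of the values of named genes under alternatives, 935 kept their side of the threshold, 107 lost a call and 46 gained one. Levels per kilobase moved by more than 1 SD in 64 of 90 recalculations with exon length, longest transcript or whole gene span. For the 15 genes that overlap no other gene, the whole span was the length already used. Those values could not move. The cause of these changes was not tested.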
